A study of Drosophila melanogaster with 2 samples.

Results

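The subject here is a set of 8 Drosophila genes known from Kenyon cells, the intrinsic neurons of the mushroom body: ey, dac, mub, sNPF, prt, jdp, Dop1R2 and Pkc53E. They were taken by symbol from the 17473 gene rows of the deposited count matrices. All 8 symbols have a row and a gene record. They had been chosen because their levels are high in the cells that the authors annotated as G-KC, so those levels are given as a description with no test. The files do not spell out G-KC. KC is the usual short form of Kenyon cell in this field.

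The study profiled single cells of larval brains of the third instar in 2 droplet libraries that count UMIs, unique molecular identifiers that mark captured transcripts at the 3′ end. The MeOH library held methanol-fixed cells of a mix of 7 lines of the Drosophila Genetic Reference Panel (DGRP), a collection of inbred wild-derived strains, and the lines were 45, 136, 382, 409, 502, 639 and 761. The fresh library held unfixed cells of a hybrid built on DGRP-551, according to its strain and fixation labels. The protocol text deposited for both samples describes fixation, and in the metadata the genotype column reads line_M1 for the fresh cells. Strain and fixation thus differed together between 1 MeOH and 1 fresh library, and their parts cannot be told apart. No transgene or mutation is named for either library. There is no replicate library, so values carry exact Poisson or Clopper-Pearson 95% intervals, which cover counting error only, and no p-value is given.

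Kenyon cells receive odour information in the calyx of the mushroom body, and dopamine released onto their axons changes their output synapses during learning. Dopamine receptors on Kenyon cells act through cyclic AMP and Gq-linked signalling. During larval life the neuroblasts that give rise to Kenyon cells first produce gamma neurons, which carry on into the adult after their axons are pruned and regrow. The 8 genes cover several layers of this cell type. Eyeless (ey) is a Pax6-family transcription factor, and dachshund (dac) is a nuclear cofactor of the retinal determination network. Both are needed for normal mushroom body development. Mushroom-body expressed (mub) encodes an RNA-binding protein with KH domains. The sNPF gene encodes the precursor of short neuropeptide F, and portabella (prt) encodes a protein related to vesicular transporters. The jdp gene encodes a J-domain protein, a class of co-chaperones. Dop1R2 is a dopamine receptor, and Pkc53E is a conventional protein kinase C.

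In dm6 coordinates, ey (FBgn0005558) lies on the plus strand at chr4:697689-721173 and dac (FBgn0005677) on the minus strand at chr2L:16466512-16485998. The mub gene lies on the plus strand at chr3L:21844788-21932702 and sNPF on the plus strand at chr2L:20027915-20056373. The other genes on chromosome 3 are on the minus strand, prt at chr3R:23696372-23699027, Dop1R2 at chr3R:29630304-29659984 and jdp at chr3R:30517059-30527037. All 8 are annotated as protein-coding. Pkc53E shares its strand with the overlapping genes CG43788 and CG43789, which together had 4 UMIs in both libraries, so reads that belong to either could have been counted for the other.

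The metadata lists 2715 MeOH cells and 2341 fresh cells. G-KC holds 28 MeOH cells (1.03% of the library's listed cells) and 17 fresh cells (0.726%). Their median depth was 4372 UMIs in MeOH (2045 to 10367) and 4471 UMIs in fresh (3728 to 14392), against 3563 UMIs in MeOH and 6603.5 UMIs in fresh over the listed cells outside G-KC. The median mitochondrial share of the G-KC cells was 2.71% in MeOH and 1.54% in fresh. The 2 libraries share 11 listed barcodes, and 0 of these are G-KC.

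Other Kenyon cell genes were looked at to check the label, with levels in CPM, the UMIs of a gene summed over cells and scaled by the sum of all their UMIs, in parts per 1e+06. Mef2, a transcription factor of Kenyon cells, had 258 CPM in MeOH G-KC against 18.02 CPM outside it, and 386 CPM in fresh G-KC against 17.0 CPM outside it. The adenylyl cyclase gene rut had 545 against 109 CPM in MeOH and 801 against 47.1 CPM in fresh. Dop1R1, a second dopamine receptor, had 265 against 19.2 CPM in MeOH and 434 against 15.01 CPM in fresh. The cell adhesion gene Fas2 had 2411 against 1217 CPM in MeOH and 2460 against 420 CPM in fresh. Of the 11 check genes, 6 were at least 2 times higher in G-KC in both libraries and 0 were absent from G-KC. Of all genes with at least 20 UMIs in each library, 4.37% were that high in both. The others of the 11 were Imp, Pka-C1, trio, toy, ab, rg and ChAT, and trio was 1.57 times as high in MeOH G-KC as outside and 6.19 times as high in fresh. The gene rg, counted among the 6, had only 2 UMIs in G-KC of each library. Its ratio was 2.57 (0.306 to 9.64) in MeOH and 6.89 (0.814 to 26.1) in fresh, with intervals that span 1. ChAT, which makes acetylcholine, was close to its outside level, with intervals of the ratio that span 1, at 28.7 against 25.2 CPM in MeOH and 38.6 against 27.4 CPM in fresh. These genes also took part in the authors' clustering, so they describe the cluster rather than test its name.

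Lists of markers of other cell types were summed in the same way. The 6 glial markers summed to 258 CPM in MeOH G-KC against 230 CPM outside it and 75.7 CPM in other neurons, with 2 of the 6 at 0. In fresh G-KC they summed to 125 CPM, against 203 CPM outside it and 71.7 CPM in other neurons, with 3 of the 6 at 0. Per cell the glial sum ran from 0 to 3899 CPM in MeOH G-KC (median 105) and from 0 to 536 CPM in fresh G-KC (median 90.8). The 4 markers of haemocytes and fat body were all at 0 in G-KC of both libraries. The 6 neuroblast markers summed to 122 CPM in MeOH G-KC against 248 CPM outside it, and to 19.3 CPM in fresh G-KC against 289 CPM outside it. The 5 markers of ganglion mother cells and newborn neurons summed to 12821 against 16311 CPM in MeOH and to 5296 against 10468 CPM in fresh. The 7 optic lobe markers summed to 136 against 102 CPM in MeOH and to 57.9 against 73.1 CPM in fresh. The 4 markers of peptidergic cells were higher in G-KC than outside it, at 402 against 183 CPM in MeOH and 1225 against 195 CPM in fresh, with 1 of the 4 at 0 in G-KC of each library. What part such RNA has in the levels below was not tested.

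The transcription factor ey had 8 UMIs in MeOH G-KC, or 57.4 CPM (24.8 to 113), against 9.01 CPM in all other listed cells. In fresh G-KC it had 20 UMIs, or 193 CPM (118 to 298), against 11.6 CPM outside. G-KC was therefore 6.37 times (2.69 to 12.96) the rest in MeOH and 16.7 times (10.0 to 26.4) the rest in fresh. Single MeOH G-KC cells ran from 0 through a median of 0 to 467 CPM, and fresh G-KC cells from 0 through 134 to 1060 CPM. Transcripts of ey were seen in 6 of 28 MeOH and 11 of 17 fresh G-KC cells, so most MeOH G-KC cells had none at their depth. The next highest annotation was a neuroblast class of the optic lobe (OL Type I NB) at 36.9 CPM in MeOH. In fresh it was optic lobe ganglion mother cells (OL GMC) at 30.05 CPM. The MeOH interval overlapped that of 25 of the 40 other annotation values, whereas the fresh interval overlapped that of 0 of 40.

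The cofactor gene dac had 93.3 CPM (49.7 to 159.5) in MeOH G-KC against 49.7 CPM outside, and 396 CPM (284 to 537) in fresh G-KC against 30.5 CPM outside. The ratio was 1.88 (0.993 to 3.23) in MeOH and 12.97 (9.22 to 17.8) in fresh, so counting error alone leaves the MeOH ratio indistinct from 1. Among single cells dac ran from 0 through a median of 0 to 633 CPM in MeOH G-KC and from 0 through 264 to 877 CPM in fresh G-KC. It was seen in 10 of 28 MeOH and 14 of 17 fresh G-KC cells. Of the 8 genes, dac alone had its highest level in another annotation value in both libraries. Cells annotated as Lamina, the name of the first optic neuropil, had 584 CPM in MeOH and 441 CPM in fresh. G-KC was sixth in MeOH and second in fresh, where its interval overlapped that of Lamina.

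The RNA-binding protein gene mub was the most widely detected of the set. It had 1270 CPM (1090 to 1471) in MeOH G-KC against 396 CPM outside, and 1775 CPM (1528 to 2051) in fresh G-KC against 274 CPM outside. The ratios were 3.20 (2.74 to 3.72) in MeOH and 6.48 (5.57 to 7.51) in fresh. Every one of the 28 MeOH and 17 fresh G-KC cells had at least 1 mub UMI, with per-cell levels from 147 through a median of 1343 to 4163 CPM in MeOH and from 447 through 1320 to 5291 CPM in fresh. None of the 40 other annotation values was at 0 in either library. In MeOH, clusters 28, 37, 27 and 34 stood above G-KC at 2045, 1633, 1395 and 1273 CPM, and only the interval of cluster 28 lay wholly above that of G-KC. In fresh G-KC ranked first, ahead of cluster 28 at 1188 CPM.

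The neuropeptide gene sNPF had 603 CPM (481 to 746) in MeOH G-KC against 20.2 CPM outside, and 1553 CPM (1323 to 1812) in fresh G-KC against 41.0 CPM outside. The ratios were 29.8 (23.0 to 38.2) in MeOH and 37.9 (31.8 to 44.9) in fresh. Single cells ran from 0 through a median of 651 to 2848 CPM in MeOH G-KC and from 0 through 1738 to 3165 CPM in fresh G-KC. Transcripts were absent from 4 of 28 MeOH and 4 of 17 fresh G-KC cells. The second highest annotation value was cluster 3, an unnamed cluster, at 120 CPM in MeOH and 317 CPM in fresh. In the fresh cluster 3, 1 cell held 214 of the 587 sNPF UMIs.

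The transporter-like gene prt was rare outside G-KC. It had 280 CPM (199 to 383) in MeOH G-KC against 4.74 CPM outside, and 560 CPM (425 to 723) in fresh G-KC against 3.36 CPM outside. G-KC was 59.1 times (38.5 to 89.6) the rest in MeOH and 167 times (115 to 241) the rest in fresh. G-KC cells held 38.6% of all prt UMIs of listed MeOH cells and 46.8% of those of listed fresh cells. Levels per cell ran from 0 through a median of 120 to 2948 CPM in MeOH G-KC and from 0 through 363 to 1662 CPM in fresh G-KC. A UMI was seen in 16 of 28 MeOH and 11 of 17 fresh G-KC cells. Of the 40 other annotation values, prt was listed at 0 in 32 in MeOH and in 31 in fresh.

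The J-domain gene jdp had 2289 CPM (2044 to 2554) in MeOH G-KC against 60.4 CPM outside, and 7370 CPM (6857 to 7912) in fresh G-KC against 41.8 CPM outside. The ratios were 37.9 (33.2 to 43.2) in MeOH and 176 (159 to 195) in fresh. It was seen in 27 of 28 MeOH and 16 of 17 fresh G-KC cells, from 0 through a median of 1743 to 9969 CPM in MeOH and from 0 through 5265 to 24142 CPM in fresh. The fresh G-KC cell with the most jdp held 174 of its 764 UMIs there, and without that cell the fresh ratio was 152. Cluster 3 was second in both libraries, at 325 CPM in MeOH and 326 CPM in fresh, and no interval of another annotation value reached that of G-KC.

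The dopamine receptor gene Dop1R2 had 459 CPM (354 to 586) in MeOH G-KC against 11.8 CPM outside, and 1949 CPM (1689 to 2237) in fresh G-KC against 11.0 CPM outside. The ratios were 38.8 (28.5 to 52.2) in MeOH and 176 (145 to 215) in fresh. G-KC cells held 29.2% of all its UMIs in MeOH and 48.2% in fresh. Per cell it ran from 0 through a median of 361 to 3738 CPM in MeOH G-KC and from 0 through 1899 to 3428 CPM in fresh G-KC, and it was seen in 23 of 28 MeOH and 16 of 17 fresh cells. Next came cluster 26 at 56.4 CPM, from 5 UMIs, in MeOH and cluster 13 at 56.8 CPM in fresh.

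The kinase gene Pkc53E had 538 CPM (423 to 675) in MeOH G-KC against 41.6 CPM outside, and 1225 CPM (1021 to 1458) in fresh G-KC against 44.5 CPM outside. The ratios were 12.9 (10.0 to 16.5) in MeOH and 27.5 (22.7 to 33.2) in fresh. It was seen in 27 of 28 MeOH and 13 of 17 fresh G-KC cells, with levels from 0 through a median of 575 to 2361 CPM in MeOH and from 0 through 523 to 3744 CPM in fresh. Cluster 3 was again second, at 162 CPM in MeOH and 258 CPM in fresh.

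**Figure D1:**
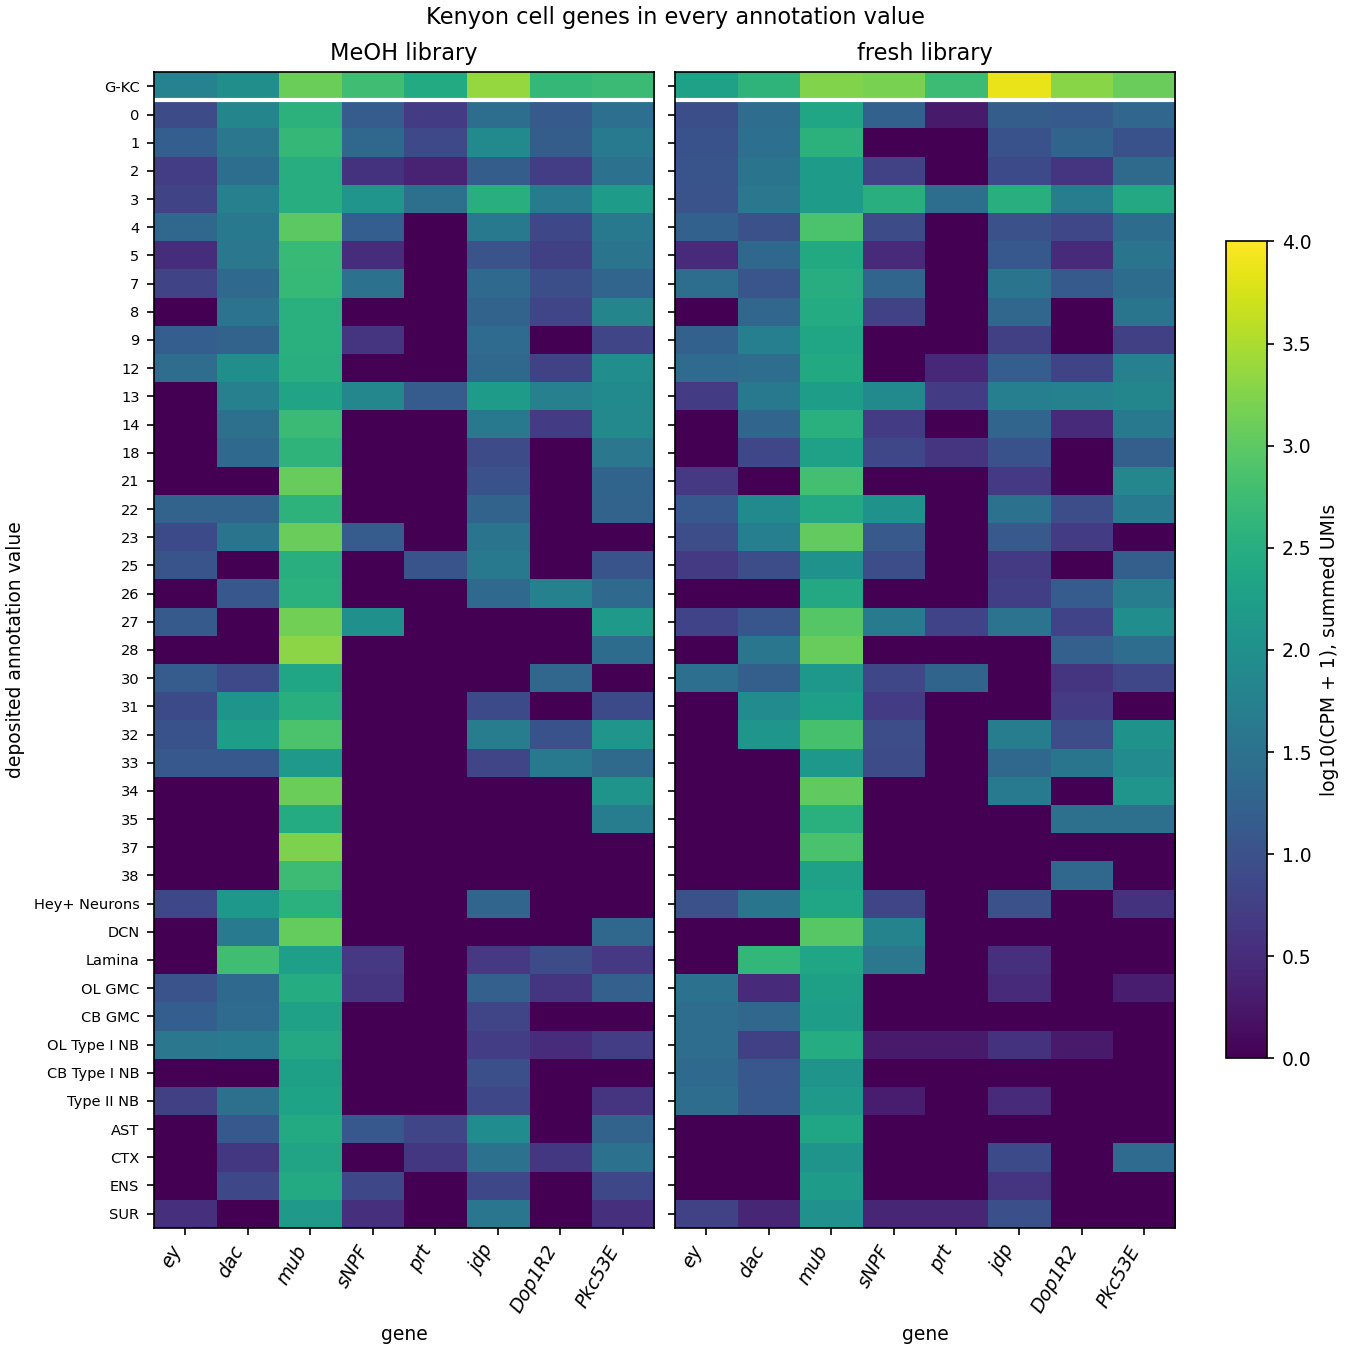
Heat map of log10(CPM + 1) from UMIs summed over cells, with the 8 genes across and the 41 annotation values down, G-KC first, for the MeOH library (left) and the fresh library (right). The G-KC row is bright for all 8 genes except ey and dac in MeOH, mub is present in every row, dac is high in Lamina, and cluster 3 is the next row with sNPF, prt, jdp and Pkc53E.

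Counting a gene as high where G-KC reached at least 2 times the other listed cells, 7 of the 8 genes were high in MeOH, all but dac, and 8 of 8 in fresh. Over all genes with at least 20 UMIs, 9.95% were that high in MeOH and 16.3% in fresh, and 4.37% were that high in both. The choice of the genes used these values, so nothing is read from the contrast. Ranked by that ratio among genes with at least 100 UMIs, 6570 in MeOH and 6904 in fresh, prt was 1st in MeOH and 5th in fresh. Dop1R2 was 2nd in MeOH and 3rd in fresh, jdp 3rd in MeOH and 4th in fresh, and sNPF 4th in MeOH and 10th in fresh. Pkc53E was 11th in MeOH and 18th in fresh, and ey 29th in MeOH and 35th in fresh. The broad gene mub was 107th in MeOH and 154th in fresh, and dac was 578th in MeOH and 56th in fresh. The median ratio of all those genes was 0.941 in MeOH and 0.878 in fresh.

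Taking neurons alone as the comparison lowered 6 of the 8 ratios in each library and left every gene higher in G-KC. The clusters counted as other neurons, by neuron markers but without clusters 1 and 31, held 1747 MeOH and 1771 fresh cells. Against them dac stood at 2.12 times (1.12 to 3.67) in MeOH, so that 8 of 8 genes reached 2 times in each library, where 13.7% of all genes did in MeOH and 16.1% in fresh. Lamina, the annotation value with the highest dac, was not among those clusters, and a dac ratio with Lamina included was not computed. The prt gene stood at 46.8 times in MeOH and 120 times in fresh. Cluster 3, one of these neuronal clusters, was second for prt and jdp in both libraries. It had 29.0 CPM of prt in MeOH and 26.5 CPM in fresh, and cluster 13 had 53.4 CPM of Dop1R2 in MeOH and 56.8 CPM in fresh.

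**Figure D2:**
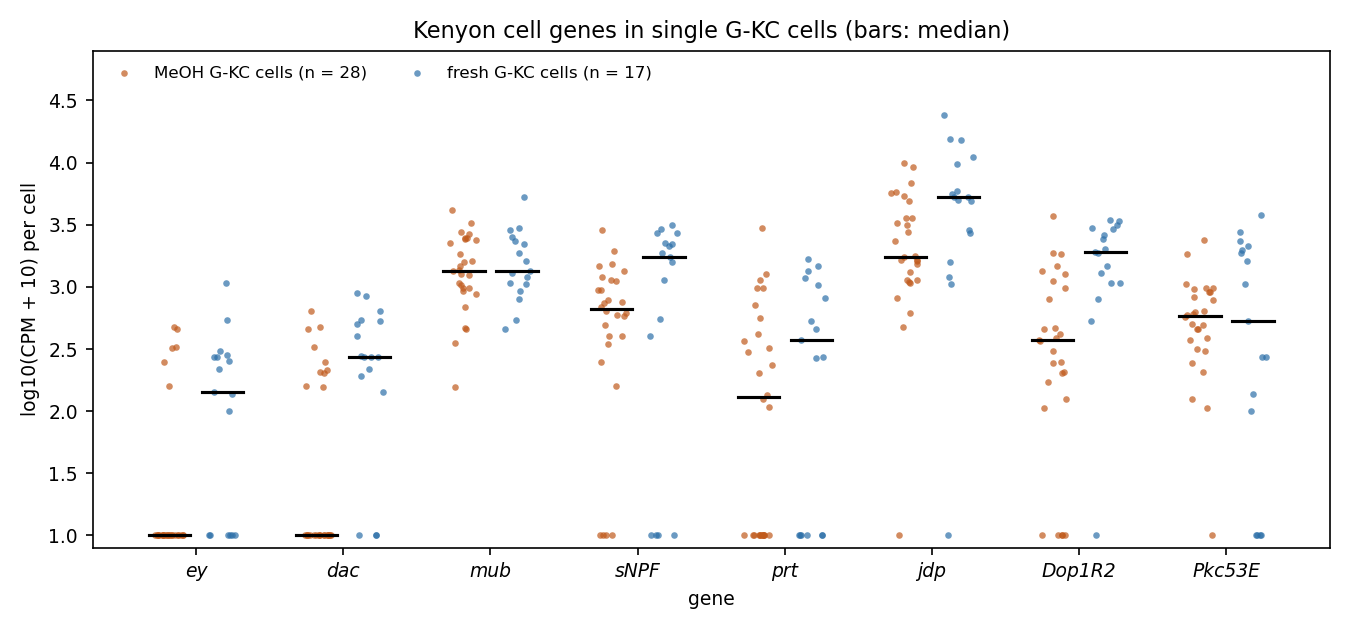
Level of each gene in single G-KC cells as log10(CPM + 10), MeOH cells (n = 28) left of fresh cells (n = 17), with the median as a bar. Points at 1 are cells with no UMI of the gene. For mub every cell has at least 1 UMI, whereas the MeOH medians of ey and dac lie at 0 UMIs, and the fresh points of jdp and Dop1R2 lie mostly above the MeOH points.

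Within G-KC the genes did not all go together from cell to cell. One fresh G-KC cell had 20 mub, 2 ey and 2 dac UMIs and 0 of sNPF, prt, jdp, Dop1R2 and Pkc53E. Over the 28 gene pairs, Spearman's rho of CPM across cells was positive in 23 pairs in MeOH (median 0.206, from -0.252 to 0.606) and in 20 pairs in fresh (median 0.311, from -0.360 to 0.788). The highest was jdp with Pkc53E in both libraries, at 0.606 in MeOH and 0.788 in fresh. The lowest was ey with sNPF in both, at -0.252 in MeOH and -0.360 in fresh. These values are descriptive, over 28 and 17 cells that each share a library, and zeros from shallow sampling enter all of them.

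To compare detection between cells of unequal depth, each cell was thinned to 2000 UMIs, and no listed cell was shallower. A G-KC cell then showed a median of 4 of the 8 genes in MeOH (1 to 8) and 6 in fresh (3 to 7). At least 4 genes were detected in 22 of 28 MeOH G-KC cells, 78.6% (59.0 to 91.7), and in 15 of 17 fresh G-KC cells, 88.2%. Of the listed cells outside G-KC, 16 of 2687 in MeOH, 0.595% (0.341 to 0.965), and 10 of 2324 in fresh, 0.430%, reached 4 genes. In glia the count was 0 of 103 in MeOH, which allows a share of up to 2.91%, and 0 of 77 in fresh, which allows up to 3.90%, where the limit for a count of 0 is set at 3 counts of the total. Cluster 3 had the largest share of the annotation values outside G-KC, 3.80% in MeOH and 5.52% in fresh. In MeOH, cluster 1 had as many such cells, 7 of 397, as cluster 3, 7 of 184. Without thinning, the G-KC medians were 6 genes in MeOH and 7 in fresh.

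**Figure D3:**
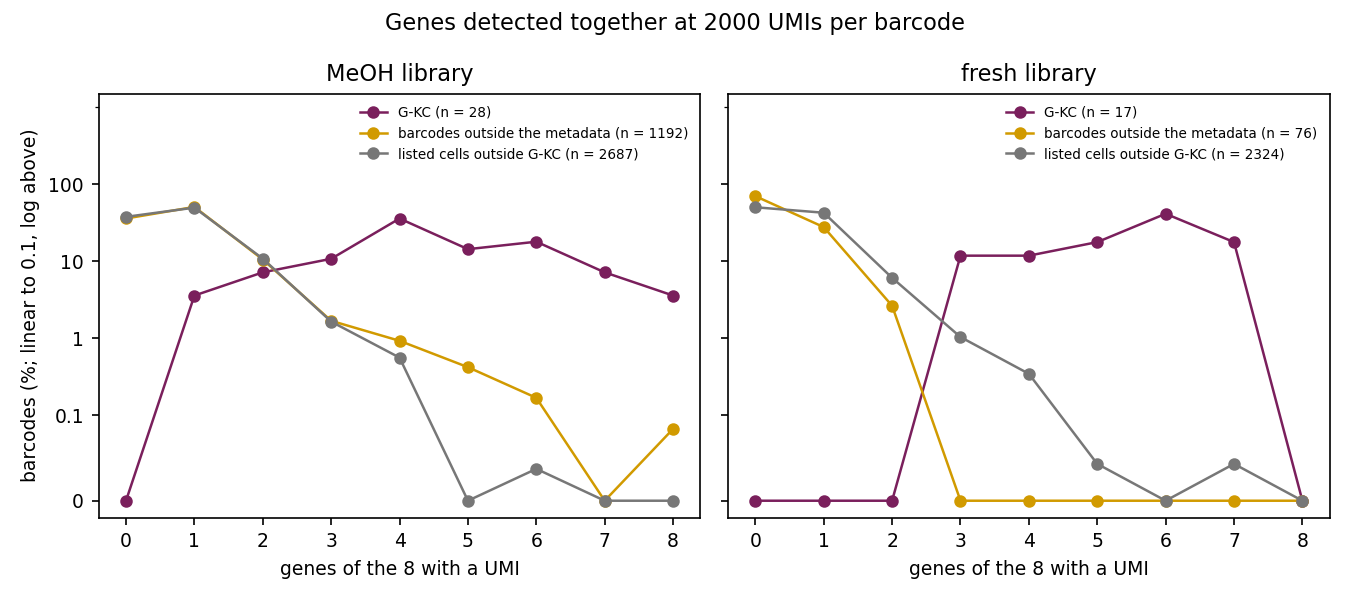
Percent of barcodes (linear to 0.1, logarithmic above) by the number of the 8 genes with a UMI at 2000 UMIs per barcode, for G-KC, barcodes outside the metadata and listed cells outside G-KC, in MeOH (left) and fresh (right). G-KC peaks at 4 genes in MeOH and 6 in fresh, whereas the listed cells outside G-KC lie mainly at 0 and 1, and the MeOH barcodes outside the metadata carry a tail up to 8.

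Detection at that depth set the genes apart. In MeOH G-KC, mub and jdp were each seen in 92.9% of cells, Pkc53E in 67.9%, sNPF in 64.3%, Dop1R2 in 57.1%, prt in 39.3%, ey in 21.4% and dac in 14.3%. In fresh G-KC, mub and jdp were each seen in 94.1%, Dop1R2 in 88.2%, sNPF in 70.6%, Pkc53E in 64.7%, prt and dac each in 52.9% and ey in 23.5%. Glia, taken as a class that should lack neuronal transcripts, showed mub in 35.9% of MeOH and 27.3% of fresh cells. For the other 7 genes the glial shares were at most 4.85% in MeOH and at most 1.30% in fresh. Median depths before thinning were 4816 UMIs in MeOH glia and 8822 UMIs in fresh glia.

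The most common pair was mub with jdp, found together in 24 of 28 MeOH cells (85.7%) and 15 of 17 fresh cells (88.2%) of G-KC. Summed over the 28 pairs, G-KC cells held 256 joint detections in MeOH, against 239 from the product of the single shares. In fresh the count was 216 against 214. Outside G-KC the joint detections were 526 against 447 in MeOH and 292 against 219 in fresh. The single shares of mub and jdp in G-KC leave little room above the product, and the pool outside G-KC mixes many cell classes, so nothing is read from the counts within against those outside.

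**Figure D4:**
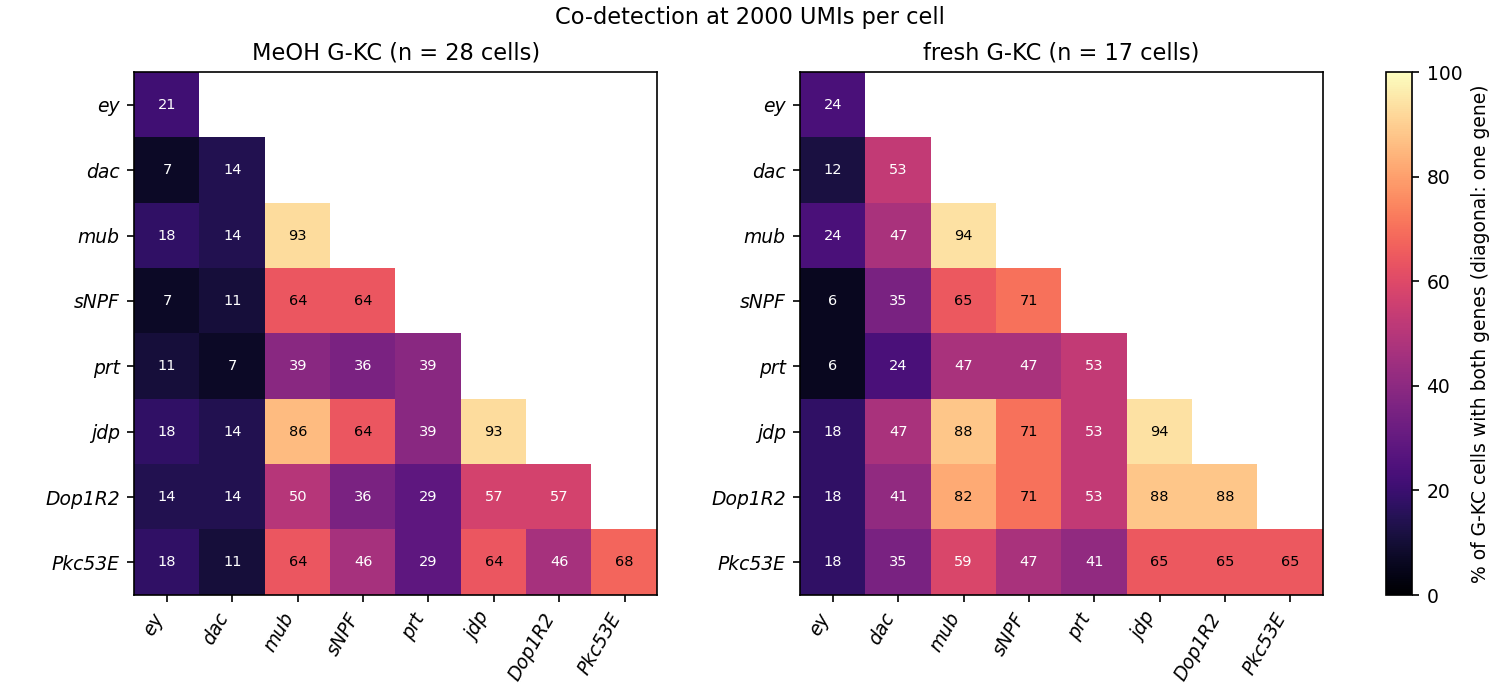
Percent of G-KC cells with both genes of a pair at 2000 UMIs per cell, with the single-gene share on the diagonal, for MeOH (left) and fresh (right). The mub and jdp rows are the brightest in both libraries, the ey rows are dark in both, and the dac and Dop1R2 rows are brighter in fresh.

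All 8 genes had lower CPM in MeOH G-KC than in fresh G-KC, and all 8 counting intervals lay below 1. The share of all genes with an interval below 1 was not computed, so nothing is read from that count. Of 1905 genes with at least 20 G-KC UMIs in all, 57.5% were lower in MeOH, with a median MeOH over fresh ratio of 0.903. The 8 genes had a median ratio of 0.349. Dop1R2 was at 0.236 (0.175 to 0.314), dac at 0.236 (0.116 to 0.449), ey at 0.297 (0.113 to 0.705), jdp at 0.311 (0.272 to 0.354), and sNPF at 0.388 (0.294 to 0.508). Pkc53E was at 0.439 (0.326 to 0.589), prt at 0.500 (0.324 to 0.763) and mub at 0.715 (0.579 to 0.884). A ratio of at most 1/2 was found for 17.7% of all these genes. Summed, the 8 genes made up 0.559% of the UMIs of MeOH G-KC cells and 1.502% of those of fresh G-KC cells.

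Other neuronal genes moved between the same cells in both directions. Pka-C1, the catalytic subunit of protein kinase A, had 1650 CPM in MeOH G-KC and 4303 CPM in fresh G-KC, a ratio of 0.384. The synaptic vesicle gene nSyb was at 0.445. The other way, pros, a homeodomain factor high in young neurons, had 7081 CPM in MeOH G-KC and 1148 CPM in fresh G-KC, a ratio of 6.17 (5.10 to 7.52). The ratio of pros was 6.65 in cluster 3 and 14.1 in cluster 13, but 1.52 over the other neurons as a whole and 2.28 in Lamina. The RNA-binding protein genes fne and Syp were at 3.71 and 3.57, and in cluster 3 at 2.23 and 1.18. The sodium channel gene para had 251 CPM in MeOH G-KC and 405 CPM in fresh G-KC, a ratio of 0.620 (0.384 to 0.994). A single library stands for each condition, so strain, fixation and preparation cannot be told apart in these ratios.

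The lower MeOH levels were not shared by all 8 genes in other cells. In cluster 3 the MeOH over fresh ratio of jdp was 0.996 (0.871 to 1.14), that of Dop1R2 0.895 (0.613 to 1.29), and that of prt 1.10 (0.675 to 1.75), all with intervals that span 1. There mub was at 1.89 and dac at 1.48. The genes sNPF and Pkc53E had ratios below 1, sNPF at 0.378 (0.309 to 0.458) and Pkc53E at 0.628 (0.525 to 0.749). Over the other neurons as a whole, jdp was at 1.27 (1.14 to 1.42), mub at 1.47 and dac at 1.64, whereas sNPF was at 0.497 (0.424 to 0.579). For jdp, Dop1R2, mub and dac the G-KC intervals and the cluster 3 intervals did not overlap, and for sNPF, ey, prt and Pkc53E they did. Genes outside the set did both as well. The intervals of Pka-C1, Syp and para did not overlap, and those of Mef2, pros and nSyb did. Pka-C1 was at 0.384 (0.326 to 0.451) in G-KC and 0.928 (0.824 to 1.04) in cluster 3. The share of all genes without overlap was not computed, so nothing particular to the 8 genes is read from this.

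**Figure D5:**
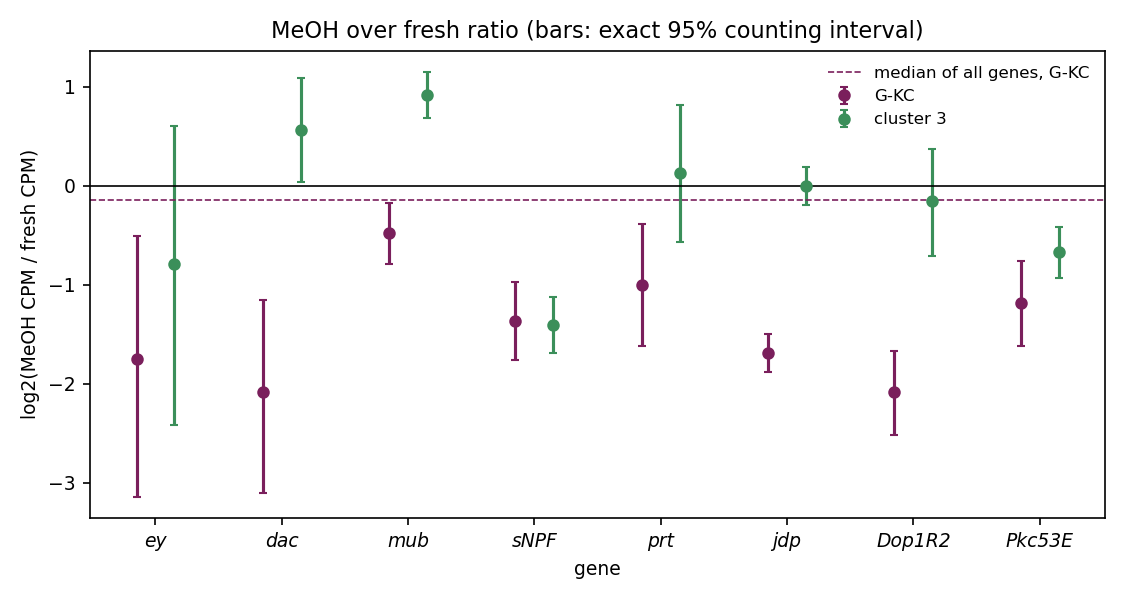
Log2 of the MeOH over fresh CPM ratio of each gene in G-KC and in cluster 3, with exact 95% counting intervals, a solid line at no difference and a dashed line at the median of all 1905 genes in G-KC (ratio 0.903). All 8 G-KC points lie below 0, and the cluster 3 points of jdp, Dop1R2 and prt lie near 0.

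Within the MeOH library, the 28 G-KC cells came unevenly from the 7 lines. DGRP-502 gave 14 of them, from 384 cells (3.65%). DGRP-409 and DGRP-761 gave 4 each, DGRP-45 gave 3, DGRP-136 gave 2, DGRP-639 gave 1, and DGRP-382 gave 0 of 210 cells, which allows a share of up to 1.43%. In the 4 lines with at least 3 G-KC cells, jdp lay between 1897 and 2306 CPM and mub between 1064 and 1738 CPM, and sNPF, Dop1R2 and Pkc53E were each above the outside level in all 4. Over the same 4 lines prt was above the outside level in 3, ey in 2 and dac in 1. The lines with fewer G-KC cells lay above that jdp range. DGRP-136 had 6326 CPM (4648 to 8412) of jdp from 2 cells, and DGRP-639 had 4926 CPM (2459 to 8814) from 1 cell. Dop1R2 had 255 CPM (159.5 to 385) in the DGRP-502 cells against 793 CPM (572 to 1072) in the G-KC cells of the other lines, a ratio of 0.321 (0.182 to 0.550). The ratio was 0.648 (0.517 to 0.812) for jdp and 0.663 (0.488 to 0.901) for mub, and the intervals of the other 5 genes spanned 1. Of the G-KC UMIs of the other lines, the 2 DGRP-136 cells held 47 of 155 for jdp and 13 of 42 for Dop1R2. Median depth was 5862 UMIs in the DGRP-502 cells and 2962 UMIs in the others. Without DGRP-502 the G-KC over rest ratio in MeOH was 73.2 for Dop1R2, 100.2 for prt and 1.14 for dac, and the MeOH over fresh ratio in G-KC was 0.407 for Dop1R2 and 0.143 for dac.

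Genes of related function were read from 8 lists, each by the number of genes at least 2 times higher, or at most 1/2 as high, in G-KC in both libraries. Over all 7888 genes with at least 20 UMIs in each library, 4.37% were that much higher and 14.6% that much lower. The share higher was 4.31% against other neurons, 1.18% at 4 times, and 3.29% among genes with at least 500 UMIs in each. G-KC was defined by clustering on gene expression, so these counts describe the cluster. A gene with 0 UMIs in G-KC may stand at up to 21.5 CPM in MeOH and 28.9 CPM in fresh, and SerT, Dgk and dan, counted among the lower genes below, had outside levels under both limits. So had eya, with 1 UMI in MeOH G-KC and 0 in fresh, and tll was under the limit in fresh, at 17.6 CPM outside, but not in MeOH.

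Of 17 further genes of Kenyon cell identity and lineage, 5 were higher and 1 was lower. The gene ftz-f1, counted among the 5, had 3 UMIs in MeOH G-KC and 1 in fresh G-KC, with intervals of the ratio that span 1. Mef2 was 14.3 times the rest in MeOH and 22.6 times in fresh, and the nuclear receptor gene Hr51 9.26 times in MeOH and 19.5 times in fresh. The orphan nuclear receptor gene tll had 0 UMIs in G-KC of both libraries. Of 15 cyclic AMP and learning genes, 9 were higher and 0 lower, with rg among the 9 from 2 UMIs in G-KC of each library. The protein kinase A subunit genes Pka-R2, at 8.52 times in MeOH and 21.1 times in fresh, and Pka-C1, at 5.38 times in MeOH and 13.4 times in fresh, were the highest by the smaller of the 2 libraries. The cyclase gene rut was at 5.01 times in MeOH and 17.01 times in fresh, Pka-R1 was at 2.95 times in MeOH and 2.39 times in fresh, and Adf1 was at 0.880 in MeOH and 0.966 in fresh. Against other neurons in place of all other cells, 4 of the 15 were higher.

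Of 21 transmitter receptor genes, 8 were higher and 1 lower. Among the 8, the interval of the ratio spanned 1 for Oamb in MeOH and for Octbeta2R in fresh, each from 4 UMIs in G-KC. The muscarinic receptor gene mAChR-B was at 15.9 times in MeOH and 41.2 times in fresh, though from 12 UMIs in MeOH and 5 in fresh G-KC. The dopamine receptor gene Dop1R1 was at 13.8 times in MeOH and 28.9 times in fresh. The nicotinic subunit gene nAChRalpha7 was lower, at 0.352 in MeOH and 0.142 in fresh. Of 10 genes of transmitter synthesis and vesicular transport, 2 were higher and 3 lower. VAChT, which loads acetylcholine into vesicles, was at 3.40 times in MeOH and 6.59 times in fresh. The tyrosine hydroxylase gene ple was at 2.20 in MeOH and 2.34 in fresh, from 3 UMIs in MeOH and 1 in fresh, with intervals that span 1, and the serotonin transporter gene SerT had 0 UMIs in G-KC.

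Among 10 genes of the protein kinase C family and Gq signalling, the setting of Pkc53E, 2 were higher and 1 lower. Pkc98E, a second kinase of the family, was at 3.54 times in MeOH and 7.98 times in fresh. Plc21C, a phospholipase C, was at 3.23 times in MeOH and 12.7 times in fresh. The diacylglycerol kinase gene Dgk had 0 UMIs in G-KC of both libraries. Of 9 genes of neuropeptide processing and release, the setting of sNPF, 3 were higher and 0 lower. The carboxypeptidase gene svr was at 2.90 times in MeOH and 6.91 times in fresh, and the amidating enzyme gene Phm at 2.79 times in MeOH and 7.40 times in fresh. IA-2 was at 1.18 in MeOH and 2.18 in fresh.

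The retinal determination network, the setting of ey and dac, gave 0 higher and 4 lower of 9 further genes. The second Pax6 gene toy was the highest by the smaller of the 2 libraries, at 1.70 times (1.07 to 2.56) in MeOH and 2.77 times (1.94 to 3.85) in fresh. The network gene so had 1 UMI in G-KC of each library, at 1.68 times in MeOH and 2.75 times in fresh with intervals that span 1, and dan had 0 UMIs there. The zinc finger gene tio was at 0.862 in MeOH, from 1 UMI, and at 6.28 times (2.01 to 14.97) in fresh, from 5 UMIs. The 4 lower genes, eya, Optix, tsh and dan, had 0 to 5 UMIs in MeOH G-KC and 0 in fresh G-KC. Of 9 J-domain and chaperone genes, the setting of jdp, 0 were higher and 0 lower. The J-domain genes mrj and CG7872 were at 1.38 and 1.24 times in MeOH and at 1.43 and 1.70 times in fresh, and the chaperone gene Hsc70-4 was at 0.803 in MeOH and 0.761 in fresh.

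The genes whose profile across annotation values was most like the mean profile of the 8 were then listed. Likeness was Pearson's r of log2(CPM + 10) over annotation values with at least 20 cells, 30 in MeOH and 28 in fresh, and the smaller of the 2 libraries' r counted. G-KC itself has too few fresh cells for that rule and entered in MeOH only. CG31760 came first at 0.848, followed by CG32700 at 0.804, Dop1R1 at 0.797, bma at 0.770 and pHCl-1, a chloride channel gene, at 0.752. In G-KC, bma had 459 CPM in MeOH and 550 CPM in fresh, 15.03 times the rest in MeOH and 43.2 times in fresh. With a minimum of 10 cells, which lets fresh G-KC in, the first 5 were Dop1R1, bma, CG31760, Rab27 and CG32700.

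Taken one at a time, sNPF, prt and jdp all had CG31760 as their nearest gene, at 0.805, 0.892 and 0.892. Dop1R2 was nearest to pHCl-1 at 0.827 and Pkc53E to the GABA receptor gene Rdl at 0.807. With the minimum of 20 cells, the other 3 genes had neighbours that were not high in G-KC of both libraries. For mub it was Dscam2 at 0.822, for dac danr of the retinal determination network at 0.722, and for ey CG3625 at 0.585. In G-KC, Dscam2 was at 1.61 times the rest in MeOH and 0.898 times in fresh. With the minimum of 10 cells, danr and Dscam2 stayed and the nearest gene of the other 6 changed. That of ey was then Rab27 at 0.448, which was 12.4 times the rest in MeOH G-KC and 18.4 times in fresh. It was CG30116 for sNPF, bma for prt and jdp, Rgk1 for Dop1R2 and Dop1R1 for Pkc53E. The correlations are across annotation values that share a library, and carry no p-value.

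Barcodes that the metadata leaves out were thinned in the same way. In MeOH, 19 of 1192 such barcodes, 1.59% (0.962 to 2.48), had at least 4 of the 8 genes, and in fresh 0 of 76 had (upper Clopper-Pearson bound 4.74%, which includes the MeOH share). Their median depth before thinning was 3094 UMIs in MeOH and 40565 UMIs in fresh. The 19 MeOH barcodes held a median of 2699 UMIs (2041 to 9262), and 0 of them had over 5% mitochondrial UMIs. All 19 were among the 970 without an assigned line, and 0 of the 222 with a line reached 4 genes. Genes that took no part in picking these barcodes were also high in them. Mef2 had 235 CPM (131 to 387) in the 19 barcodes against 19.6 CPM in the other unlisted MeOH barcodes. Dop1R1 had 360 CPM (228 to 540) against 10.7 CPM, rut 924 CPM (703 to 1192) against 105 CPM, and Pka-C1 2458 CPM against 295 CPM. The same genes had 258, 265, 545 and 1650 CPM in MeOH G-KC. In the 16 listed MeOH cells outside G-KC with at least 4 of the 8 genes, Mef2 had 12.2 CPM, from 1 UMI, and Dop1R1 36.6 CPM, from 3 UMIs, against 18.1 and 19.1 CPM in the listed cells with fewer. There rut had 244 CPM (149 to 377) against 108 CPM and Pka-C1 609 CPM (452 to 804) against 305 CPM. In the 10 fresh cells chosen in the same way, Mef2 had 85.9 CPM (41.2 to 158) against 16.6 CPM and Dop1R1 103 CPM (53.3 to 180.1) against 14.5 CPM. For rut and Pka-C1 the fresh values were 68.7 against 46.9 CPM and 378 against 322 CPM. Whether the 19 barcodes are single cells was not tested.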

How the data were processed

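The authors deposited UMI counts per gene and barcode for both libraries (whole numbers, not normalized), a matrix of MeOH barcodes with their assigned DGRP line, and a metadata table with cell annotation and the percent of mitochondrial UMIs that the authors computed per cell. Per the submitters' processing notes the build was dm6 and Cell Ranger and Seurat were used, with versions not given in the sources used here. Gene positions came from the Ensembl annotation of that build, and no sequence was used. Of the gene rows, 13848 match a current symbol.

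From the counts, UMIs were summed over the listed cells of each annotation value and library and divided by the summed totals (CPM). Ratios carry exact conditional binomial 95% intervals. Detection used cells thinned to 2000 UMIs with a fixed seed. No doublet caller was run, and the labels do not say whether doublets were removed. Clusters counted as neuronal had at least 3 of 7 neuron markers at 2 times their level in the named classes set as non-neuronal. Lamina was put among those classes. Clusters 1 and 31 passed this rule, with 6 and 5 of the markers, but were left out after their values were seen. The ratio calls and the likeness ranking were tested on simulated data. For the ratio calls these held only genes with at least 500 UMIs, changes larger than 2 times, and counting noise alone. Calls near 2 times and genes with fewer UMIs, such as ey and prt, were not covered. Python 3.11.15, numpy 2.4.6, pandas 2.3.3, scipy 1.17.1 and matplotlib 3.10.9 were used.

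The 8 genes, the lists and the comparisons were chosen with earlier results of these data known. Genes named from a list are the 2 highest and the 1 lowest in both libraries among those with at least 20 UMIs in each. Outside that rule, Pka-R1, ftz-f1, Oamb, Octbeta2R, tio, eya, Optix and tsh were named with their values known. Genes named for likeness are the 5 most like the mean profile and the 1 nearest to each of the 8. The check genes, the genes compared between MeOH and fresh G-KC (Pka-C1, nSyb, pros, fne, Syp and para) and the examples of single cells were named with their values known. One gene of the set has no position printed here.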

Additional observations from a re-analysis of the deposited data

Results flagged for a closer look

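G-KC made up 3.65% of the cells of DGRP-502, and the next of the 7 lines was at 1.02%. The gap to that line was 0.721 of the whole range over the lines. Of 17 such groups of lines looked at, 1 stood apart by this measure, and chance sets apart about 1 in 20.

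In barcodes of the MeOH library that the metadata leaves out, 1.59% had at least 4 of the 8 genes at 2000 UMIs, against 0.595% of the listed MeOH cells outside G-KC. The listed share leaves out the 22 MeOH G-KC cells with at least 4 genes. The unlisted barcodes have no annotation, so none was removed as G-KC, and these shares are of unlike sets. These barcodes enter no comparison between the libraries.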

How the results depend on the processing

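Of 247 values recomputed under another setting, 186 stayed within their counting interval or within 1.5 times for counts, 61 moved and 0 reversed. All 144 G-KC over rest ratios stayed above 1 and 136 stayed at 2 or more, and all 32 MeOH over fresh ratios stayed below 1. These counts include, for each of the 8 genes, a setting with only the MeOH cells that have a line. All 2715 listed MeOH cells have one, so that setting repeats the main value by construction and shows no stability. Thinning put the MeOH over fresh ratio of ey at 0.520 and that of mub at 0.971. Settings added after seeing the data are the minimum of 500 UMIs, the barcodes outside the metadata, the 10-cell minimum, leaving out DGRP-502 between libraries, and, for the count of the 8 genes, leaving out the top cell or mitochondrial genes.

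The share of all genes at least 2 times higher in G-KC was 4.02% in MeOH with 500 UMIs or more, and with a fold of 4 it was 2.09% in MeOH and 5.66% in fresh. Unthinned, the median MeOH G-KC cell had 6 of the 8 genes. The share of cells outside G-KC with at least 4 genes was 2.61% in MeOH and 2.71% in fresh unthinned, 0.112% in MeOH and 0.0861% in fresh at 1000 UMIs, and 0.335% in MeOH and 0.904% in fresh when a gene needed 2 UMIs. Among barcodes outside the metadata, which have no annotation, the share was 1.59% in MeOH and 0 in fresh. The upper bound of 4.74% in fresh includes the MeOH share. With a fold of 4, the counts higher in both libraries were 2 for Kenyon cell identity, 3 for cyclic AMP and learning, 3 for receptors, and 0 each for transmitter synthesis, the kinase C family and neuropeptide processing. Against other neurons they were 4 for cyclic AMP and learning, 5 for receptors, 1 for transmitter synthesis and 1 for the retinal network. The retinal network gene counted there was so, with only 1 UMI in G-KC of each library. With 500 UMIs or more they were 2 for Kenyon cell identity, 4 for receptors and 1 for transmitter synthesis. A pseudocount of 1 kept 2 of the 5 genes most like the set. The cause of these moves was not tested, except that a higher fold or minimum tests fewer genes or calls less by construction.

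No paired analysis was possible because each condition has 1 library and no replicate number is shared. Depth limits ey and dac most, with 8 and 13 UMIs in MeOH G-KC.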
